A study of Homo sapiens with 8 samples.

Results

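The genes described here were the 36 aminoacyl-tRNA synthetase genes among the 19124 genes of the series, chosen by gene symbol with earlier results of these data known. Of these, 20 encode cytosolic enzymes (symbols without the suffix 2) and 16 encode mitochondrial enzymes (symbols with the suffix 2, and PARS2). All 36 had a value in every library and all 36 passed the filter on low values. The cells were HCT116 and HT29, both established human colorectal cancer lines, from which total RNA was taken for sequencing 48 h after transfection of siRNA at 15 nM. Each line received a negative control siRNA (NC) or an siRNA against RPL9, RPL17 or RPL27, which encode proteins of the large ribosomal subunit. There was 1 library for each line and siRNA, 8 in all, so no siRNA was repeated within a line and no untransfected cells enter any comparison. The sources used here do not say how many siRNA sequences were used for each target.

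Aminoacyl-tRNA synthetases join each amino acid to its own transfer RNA, and the ribosome then uses the charged tRNA to read messenger RNA. Human cells use separate nuclear genes for most cytosolic and mitochondrial enzymes, while GARS (glycine) and KARS (lysine) give rise to both forms. Several cytosolic enzymes sit together in the multi-synthetase complex, held by the scaffold proteins AIMP1, AIMP2 and EEF1E1. Many cytosolic synthetase genes have been described as targets of ATF4, the transcription factor of the amino acid response, which binds the C/EBP-ATF composite element.

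The promoters of the members were searched for the core letters of that element, TGATGNAA, on both strands, because the cytosolic and mitochondrial genes are compared below and this element has been described in the former. RefSeq promoters (GRCh38.p14, 250 bases before to 50 after the annotated start) were matched for 30 members, 16 cytosolic and 14 mitochondrial. The letters were present in 6 of the 16 cytosolic and 1 of the 14 mitochondrial promoters, against 1003 of all 27305 promoters (3.67%). A match is a description of the letters and not a bound site or a cause. The stretches around the matches are given 5′ to 3′ on the strand of the gene, with the motif or its reverse complement TTNCATCA in capitals. They lie at chr16:70289646-70289733 (minus strand, AARS), chr11:3057404-3057465 (minus, CARS), chr9:92293678-92293750 (minus, IARS), chr12:57488024-57488087 (plus, MARS), chr18:57621804-57621833 (minus, NARS), chr5:33440956-33440985 (plus, TARS) and chr12:32756047-32756134 (minus, YARS2).
AARS: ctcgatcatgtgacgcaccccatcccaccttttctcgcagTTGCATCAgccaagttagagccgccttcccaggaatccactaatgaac
CARS: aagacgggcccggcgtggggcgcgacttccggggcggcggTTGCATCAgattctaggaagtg
IARS: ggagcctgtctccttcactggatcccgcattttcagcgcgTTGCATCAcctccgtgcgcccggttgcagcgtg
MARS: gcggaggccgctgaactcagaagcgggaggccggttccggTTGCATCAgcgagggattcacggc
NARS: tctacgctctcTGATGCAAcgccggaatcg
TARS: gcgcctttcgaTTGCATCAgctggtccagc
YARS2: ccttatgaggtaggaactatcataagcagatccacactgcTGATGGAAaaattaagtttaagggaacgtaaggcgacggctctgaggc
In the 6 cytosolic promoters the open position N held the same base, giving TTGCATCA or its complement TGATGCAA. Counted from the annotated start, the letters began at position -187 in AARS and -197 in YARS2, and within 15 bases of the start in the other 5. Promoters of DARS, LARS, VARS, YARS, AARS2 and VARS2 were not analysed here.

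Values were deposited as RPKM, reads per kilobase of transcript and per 1 M (mega) of mapped reads, and differences are given as log2(RPKM + 1) of a library minus that of the NC library of the same line. A difference of -1 is thus close to a halving. Because the RPKM behaved like sums over exons, the level of a gene is compared across libraries but never with that of another gene. Library depth, estimated from the spacing of low values of single-exon genes, was 20.6 to 26.4 M reads, and 13.1% to 15.7% of genes were listed at 0. The HT29 NC library stood apart: the rank correlation of its values with transcript length, taken as deviations from each gene's mean over the libraries, was -0.54, against 0.12 to 0.23 in the other 7 libraries. Comparisons with NC are therefore also given after removal of each library's trend with length. Each targeted gene was lowest under its own siRNA, at 13.7% to 38.5% of the NC level of the line. Of 6 epithelial markers, summed levels were 15941 to 23055 RPKM in HCT116 and 35118 to 40968 in HT29, with VIL1 at 0 to 2.89 RPKM in HCT116 against 358 to 475 in HT29, and CDX2 at 8.04 to 18.8 over all libraries. Of the markers of fibroblasts, leukocytes and endothelium, COL1A1 alone was above 10 RPKM (252 to 437), while COL1A2, DCN and LUM reached at most 1.31.

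GARS, the glycine enzyme, had the lowest mean difference from NC of the 36 genes over both lines and the 3 RPL siRNAs. It was not the lowest in every library. In HCT116, CARS and YARS were lower than GARS under RPL17 siRNA and QARS under RPL27 siRNA. In HT29, CARS was lower than GARS under RPL17 siRNA, and QARS, CARS and FARS2 under RPL27 siRNA. GARS was at 5616 RPKM under NC siRNA in HCT116 and at 2524, 3035 and 2881 under RPL9, RPL17 and RPL27 siRNA. In HT29 the values were 6290 under NC and 2444, 2736 and 2715 in the same order. All 6 RPL siRNA libraries were thus below both NC libraries, at 44.9% to 54.0% of NC in HCT116 and 38.8% to 43.5% in HT29. CARS, the cysteine enzyme, stood at 2760.2 RPKM under NC and 1633, 1267 and 1573 under the 3 RPL siRNAs in HCT116. In HT29 it stood at 3384 under NC and 1488, 1269 and 1361. Again every RPL siRNA library lay below both NC libraries. Over all members 9 of 20 cytosolic genes (AARS, CARS, GARS, MARS, QARS, SARS, TARS, WARS and YARS) and 2 of 16 mitochondrial genes (TARS2 and VARS2) met this rule, where 8.83% of all genes tested did so.

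A further 5 cytosolic genes had the same order in both lines. AARS, the alanine enzyme, was at 3683 (HCT116) and 3280.0 (HT29) RPKM under NC and between 1829 and 2229.9 in the 6 RPL siRNA libraries. YARS, the tyrosine enzyme, was at 3242 and 2913 under NC and between 1517 and 2139.5 in those 6 libraries. MARS, which charges methionine, was at 3611 and 3645 under NC and between 2151 and 2569 elsewhere. In all 3 genes the NC and RPL siRNA libraries did not overlap across the lines. TARS, the threonine enzyme, was at 5574 and 5542 under NC and between 3538 and 4287 otherwise, also without overlap. WARS, the tryptophan enzyme, was at 1106 and 881 under NC and between 531 and 802 otherwise, again without overlap.

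QARS, SARS and EPRS were also below NC in all 6 libraries, QARS and SARS with more spread over the siRNAs. QARS, the glutamine enzyme, was at 3184 RPKM under NC and 2617, 2390.1 and 1326 under RPL9, RPL17 and RPL27 siRNA in HCT116, and at 3582, 2286, 2455 and 1107 in HT29. Both RPL27 siRNA libraries were far below the rest, and they are compared on their own further on. SARS, the serine enzyme, was at 2086, 2040.0, 1465 and 1723 RPKM in HCT116 in the same order, so that RPL9 siRNA was close to NC there. In HT29 it was at 2549.9 under NC and 1637, 1149 and 1365 under the RPL siRNAs. EPRS, which charges both glutamate and proline, was at 4584 under NC and 3387 to 3624 otherwise in HCT116, and at 3556 and 2905 to 2971 in HT29. Its lines overlapped, since the HT29 NC value lay within the HCT116 range under RPL siRNA.

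**Figure D1:**
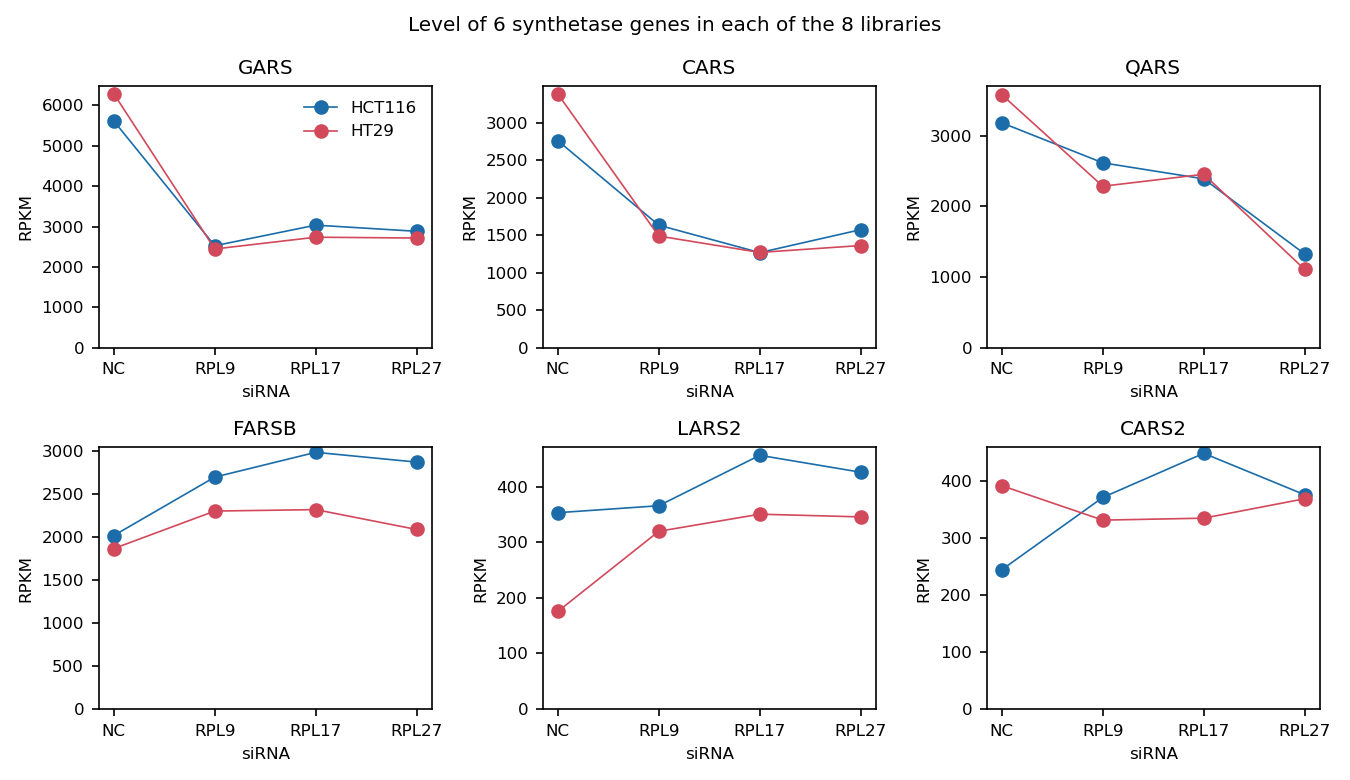
Level of 6 synthetase genes in RPKM (vertical axes from 0) under each siRNA (horizontal axes), with 1 point per library and lines joining the libraries of HCT116 (blue) and HT29 (red). GARS, CARS and QARS were below NC in all 6 RPL siRNA libraries, with QARS lowest under RPL27 siRNA; FARSB and LARS2 were above NC in all 6, and CARS2 was above NC in HCT116 only.

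In the limma fit across both lines, the mean of the 3 RPL siRNAs was below NC by 1.13 for GARS (log2 difference -1.13 ± 0.13, SE; adjusted p = 0.0584 by the Benjamini-Hochberg method) and by 1.10 for CARS (-1.10 ± 0.15; adjusted p = 0.0662). QARS was at -0.81 ± 0.14 (adjusted p = 0.0778), YARS at -0.77 ± 0.12 (0.0693), AARS at -0.76 ± 0.12 (0.0721), MARS at -0.65 ± 0.13 (0.0849), WARS at -0.60 ± 0.14 (0.0992), SARS at -0.58 ± 0.18 (0.140), TARS at -0.52 ± 0.12 (0.0964) and EPRS at -0.34 ± 0.12 (0.169). None of the 20 cytosolic or 16 mitochondrial genes passed the adjusted threshold of 0.05 in either direction, where 0.0630% of the 14281 genes tested were called lower and 0.105% higher. At an unadjusted p under 0.05, limma placed 10 cytosolic genes below NC and 1 above, and 1 mitochondrial gene below and 2 above, among 3506 of all genes tested. The replicates of each siRNA are the 2 lines, and the p-values measure only the spread between these libraries.

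After removal of the length trend, AARS, CARS, GARS, MARS, QARS, TARS, WARS and YARS fell, by 0.56 (TARS) to 1.19 (GARS) on the log2 scale, with adjusted p from 0.0148 to 0.0334 (limma). These 8 were all cytosolic, and no member rose, where 3.31% of all genes were called lower and 2.78% higher. Without the HT29 NC library 11 members were called lower and 6 higher, where 12.9% of genes were called in either direction. Without the HCT116 NC library 11 were called lower and 4 higher, where 49.0% of genes were called. Of the lower ones 9 were shared (the 8 above and EPRS), and FARSB was the 1 gene called higher in both. Each of these latter fits rests on the single NC library that remains.

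Other cytosolic genes were above NC or differed between the lines. FARSB, the beta subunit of the phenylalanine enzyme, was at 2018 RPKM under NC and 2697, 2986 and 2872 under the RPL siRNAs in HCT116, and at 1867, 2303, 2319 and 2088 in HT29. All 6 RPL siRNA libraries lay above both NC libraries, as did those of RARS among the cytosolic and of HARS2, MARS2, PARS2 and WARS2 among the mitochondrial genes, where 11.8% of all genes tested met this rule. The mean difference of FARSB did not pass the test (0.38 ± 0.13, adjusted p = 0.169, limma; 0.23 after length correction, where its HT29 values no longer lay above NC in all 3 libraries). RARS, the arginine enzyme, was at 1411 under NC and 1694 to 1964 otherwise in HCT116, but at 1507 and 1553 to 1620.3 in HT29, where the differences were 0.04 to 0.10. KARS, the lysine enzyme, was at 2146 under NC and 2431 to 2945 otherwise in HCT116, while the HT29 libraries under RPL siRNA (2310.1 to 2926) lay on both sides of the NC value of 2411. FARSA, the alpha subunit of the phenylalanine enzyme, was at 1041 under NC and 1402 to 1441 otherwise in HCT116, and at 1119.5 and 1065 to 1187 in HT29. IARS, the isoleucine enzyme, was below NC in HCT116 (8284 RPKM against 5804, 7102 and 7222) and above it in HT29 (4919.9 against 5360.2, 5655 and 6018). LARS and NARS, for leucine and asparagine, were also below NC in all 3 HCT116 libraries and above it in at least 2 of 3 HT29 libraries. After length correction IARS and LARS were below NC in all 3 HT29 libraries, at log2 differences of -0.55 to -0.43 and -0.55 to -0.48, NARS was at 0.00, -0.19 and -0.33 there, and LARS was at 0.03 with RPL17 siRNA in HCT116. DARS and VARS, for aspartate and valine, had mean differences of -0.06 and -0.05, and VARS in HT29 moved to between -0.75 and -0.56 with that correction.

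**Figure D2:**
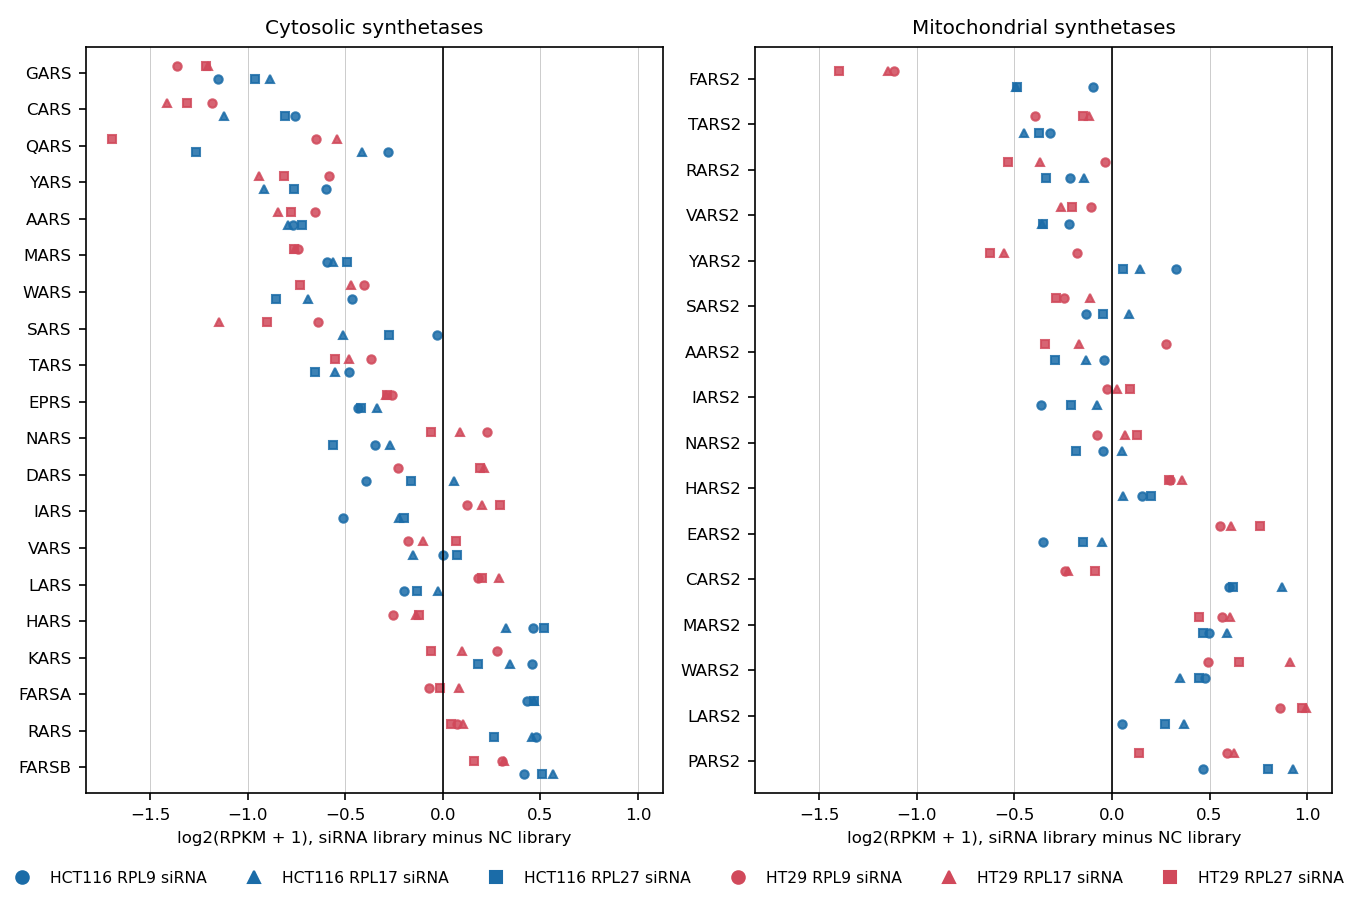
Difference in log2(RPKM + 1) from the NC library of the same line (horizontal axes) for the 20 cytosolic (left) and 16 mitochondrial (right) genes, ordered by their mean over both lines; blue symbols are HCT116, red are HT29, and circles, triangles and squares are RPL9, RPL17 and RPL27 siRNA, with 1 library each. The 10 cytosolic genes from GARS to EPRS have all 6 symbols below 0, against 4 of the 16 mitochondrial genes and 13.0% of all genes tested.

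Mitochondrial synthetases were spread around NC. WARS2, the tryptophan enzyme, was at 47.7 and 36.4 RPKM under NC (HCT116 and HT29) and between 51.7 and 69.3 in the 6 RPL siRNA libraries, all above both NC values (0.55 ± 0.22, adjusted p = 0.196, limma). MARS2, for methionine, was at 5.54 and 6.11 under NC and between 8.04 and 9.81 otherwise, again with no overlap (0.53 ± 0.25, adjusted p = 0.251). PARS2, the proline enzyme, was at 3.07 and 3.33 under NC and between 3.76 and 6.74 otherwise, also without overlap (0.59 ± 0.31, adjusted p = 0.275). That order is the one that 11.8% of all genes showed, and MARS2, a single-exon gene, rested on about 364 to 758 reads per library. LARS2, the leucine enzyme, was at 353 RPKM under NC and 365, 456 and 426 under the RPL siRNAs in HCT116, and at 175 under NC and 319, 350.2 and 345 in HT29. The HT29 difference was the larger and was 0.94 ± 0.07 (SD over 3 siRNAs) against 0.23 ± 0.16 in HCT116. LARS2 has a long transcript (4211 bases), and the mean over both lines was 0.59 ± 0.21 as deposited and 0.32 ± 0.13 after length correction (adjusted p = 0.1699 and 0.172).

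FARS2, the mitochondrial phenylalanine enzyme, had the lowest mean of the mitochondrial set (-0.79 ± 0.28, adjusted p = 0.167, limma). It was at 38.9 RPKM under NC and 36.3, 27.3 and 27.4 otherwise in HCT116, and at 86.3 under NC and 39.2, 38.4 and 32.1 in HT29. The HT29 NC library alone was far above the other 7. TARS2, for threonine, was at 242 and 231 under NC and between 176 and 213 otherwise (-0.30 ± 0.17, adjusted p = 0.314), and RARS2, for arginine, had a mean of -0.27 ± 0.15 (adjusted p = 0.302). HARS2, the histidine enzyme, was above NC in all 6 libraries, by 0.06 to 0.36. As deposited, EARS2 and CARS2 lay on opposite sides of NC in the lines. EARS2, for glutamate, was at 174 RPKM under NC and 136 to 168 otherwise in HCT116, but at 79.3 and 117 to 135 in HT29. After length correction its differences were -0.31, -0.003 and -0.12 in HCT116 and 0.08, 0.08 and 0.24 in HT29 under RPL9, RPL17 and RPL27 siRNA. AARS2, IARS2, NARS2, SARS2, VARS2 and YARS2 had means between -0.25 and -0.01. Of these, SARS2 shares 83.1% of its exonic bases with MRPS12 and a read-through model when strand is ignored. HARS2 shares 19.5% with HARS and ZMAT2. Reads in the shared bases could not be told apart from those of the neighbours. Smaller shares were those of YARS (12.2%, with S100PBP), EARS2 (8.15%, with UBFD1), AARS2 (6.10%, with TMEM151B) and WARS (5.49%, with WDR25).

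The HARS and HARS2 genes are a head-to-head pair at the RefSeq starts on chromosome 5, shown here because the members of this pair did not share a direction in HT29 as deposited. The 84 bases between the starts (GRCh38.p14, chr5:140691371-140691454, plus strand, the strand of HARS2) hold no match to TGATGNAA.
HARS and HARS2: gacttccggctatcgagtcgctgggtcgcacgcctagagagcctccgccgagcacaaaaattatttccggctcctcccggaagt
In HCT116 HARS was above NC by 0.32 to 0.52 and HARS2 by 0.06 to 0.20. In HT29 HARS was below NC, at -0.25, -0.14 and -0.12, while HARS2 was above it by 0.29 to 0.36. After length correction HARS lay between -0.06 and 0.04 in HT29 and HARS2 between 0.17 and 0.23.

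Within each line, the cytosolic genes had lower medians than the mitochondrial genes under every RPL siRNA. In HCT116 the cytosolic medians were -0.37, -0.31 and -0.35 under RPL9, RPL17 and RPL27 siRNA, the mitochondrial medians -0.05, 0.05 and -0.10, and the medians of all genes tested 0.01, 0.00 and 0.02. In HT29 the cytosolic medians were -0.26, -0.22 and -0.20 and the mitochondrial ones -0.03, -0.04 and 0.00, while all genes had medians of 0.17, 0.20 and 0.19. The gap between the cytosolic and mitochondrial medians was -0.31 ± 0.05 in HCT116 and -0.20 ± 0.03 in HT29 (SD over the 3 siRNAs, which share 1 NC library per line). After length correction the gap was -0.30 in HCT116 and -0.59 in HT29. Quantile normalization brought the HT29 gap to 0.02, which is of the opposite sign. The median transcript length was 2832 bases for cytosolic and 2429 for mitochondrial members, against 2775 for all genes tested.

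Below NC in all 6 RPL siRNA libraries were 10 of 20 cytosolic genes (AARS, CARS, EPRS, GARS, MARS, QARS, SARS, TARS, WARS and YARS) and 4 of 16 mitochondrial genes (FARS2, RARS2, TARS2 and VARS2), where 13.0% of all genes tested met this rule. Above NC in all 6 were 2 cytosolic genes (FARSB and RARS) and 5 mitochondrial genes (HARS2, LARS2, MARS2, PARS2 and WARS2), with 18.0% of all genes. After length correction the counts were 11 and 4 below (16.8% of genes) and 2 and 5 above (16.0%). The 6 comparisons share the NC library of each line, so these counts do not stand for independent replicates.

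Cytosolic and mitochondrial enzymes for the same amino acid were set side by side for 13 amino acids. The difference from NC was lower for the cytosolic enzyme in 9, 10 and 9 of the 13 pairs in HCT116 (RPL9, RPL17 and RPL27 siRNA) and in 9, 9 and 10 in HT29. It was lower in all 6 libraries for the alanine, cysteine, leucine, methionine, tryptophan and tyrosine pairs. In HCT116 the widest gap was that of CARS and CARS2, with a mean of -1.59, ahead of WARS and WARS2 at -1.09 and MARS and MARS2 at -1.07. In HT29 as deposited the MARS pair was at -1.29, the WARS pair at -1.22 and the CARS pair at -1.12, while after length correction the CARS pair was the widest there, at -1.42. RARS and RARS2 went the other way, with the cytosolic enzyme above its partner in all 6 libraries by 0.10 to 0.69. With length correction the cytosolic enzyme was lower in 12 of 13 pairs in each HT29 library.

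**Figure D3:**
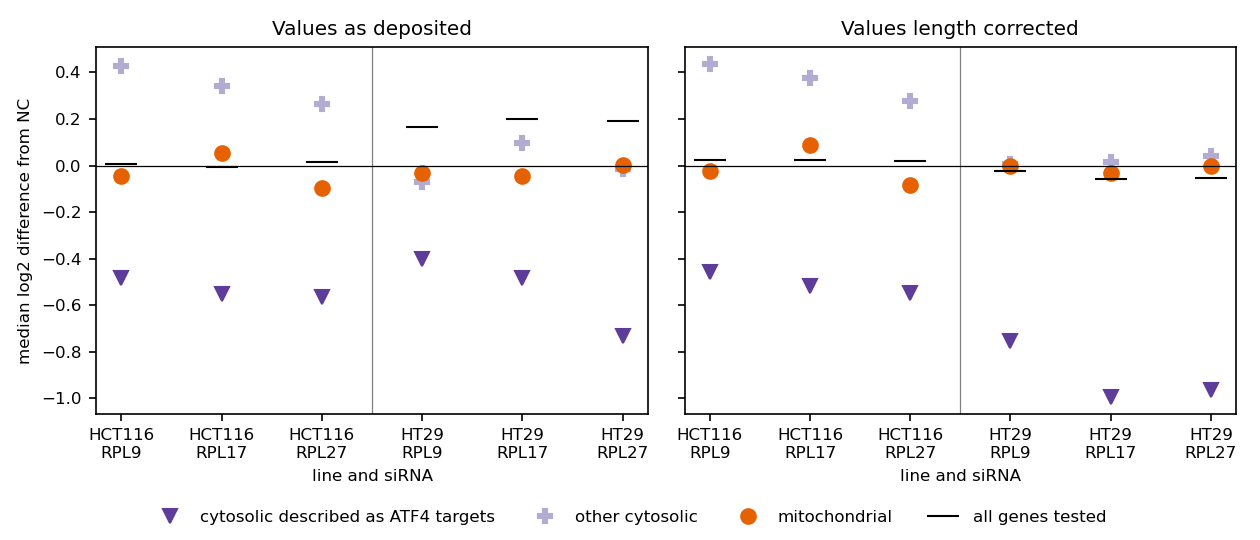
Median difference in log2(RPKM + 1) from NC (vertical axes) in each line and siRNA (horizontal axes), for values as deposited (left) and length corrected (right): purple triangles are the 13 cytosolic genes described as ATF4 targets, lilac crosses the other 7 cytosolic genes, orange circles the 16 mitochondrial genes and black bars all genes tested. The 13 described ATF4 targets have the lowest median in every library, between -0.40 and -0.73 as deposited.

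The cytosolic genes divided along a list of 13 that have been described as ATF4 targets. This list was assembled with earlier results of these data known and is no independent evidence of direction. Its medians were -0.48, -0.55 and -0.56 in HCT116 and -0.40, -0.48 and -0.73 in HT29. Of the 13, 9 were below NC in all 6 libraries, where 13.0% of all genes tested were. The other 7 cytosolic genes (DARS, FARSA, FARSB, HARS, KARS, QARS and RARS) had medians of 0.43, 0.34 and 0.26 in HCT116 and -0.07, 0.10 and -0.02 in HT29, and QARS was the 1 gene of them below NC in all 6. As deposited, cytosolic genes with the TGATGNAA letters were found on both sides: AARS, CARS, MARS and TARS were below NC in all 6 libraries. IARS and NARS were below it in the 3 HCT116 libraries and above it in 3 and 2 of the 3 HT29 libraries. After length correction IARS was below NC in all 6 libraries, and NARS in HT29 was at 0.00, -0.19 and -0.33. GARS, EPRS, QARS, SARS and WARS were below NC in all 6 libraries with no match in their promoter windows.

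Of 19 other genes on a list for ATF4 and the amino acid response, 12 were below NC in all 6 libraries and none above (13.0% and 18.0% of all genes tested). Their median for the mean of the RPL siRNAs was -0.83. ASNS, PHGDH and PSAT1 fell and no gene of the list passed the test in the other direction (3 of 19 called, where 0.0630% of all genes were called lower; 11 of 19 after length correction, where 3.31% were). ATF5, SESN2, SLC7A11 and SLC7A5 were above NC in all 3 HT29 libraries as deposited, and after length correction ATF5 and SLC7A11 were. SLC7A11, a cystine transporter subunit, and SLC7A5, an amino acid transporter, both named after their values were seen, differed between the lines in the interaction fit described at the end, at -4.33 ± 0.75 (adjusted p = 0.00598) and -1.10 ± 0.15 (adjusted p = 0.00264), where 16.8% of genes were called lower, and neither passed after length correction (adjusted p = 0.0529 and 0.221). ASNS, asparagine synthetase, fell by 2.52 ± 0.19 (adjusted p = 0.0222, limma). CHAC1, a glutathione-degrading enzyme, was at -2.93 ± 0.33 (0.0584), DDIT3, which encodes the factor CHOP, at -1.13 ± 0.23 (0.0896), the pseudokinase gene TRIB3 at -0.83 ± 0.27 (0.152), ATF4 itself at -0.46 ± 0.19 (0.205) and SESN2 at 0.03 ± 0.22 (0.934). The DDIT3 and MARS genes overlap, with 2.26% of MARS exonic bases shared, so that part of the reads could be common to both.

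As deposited, the partners of the synthetases showed no common direction. Among 8 enzymes of the multi-synthetase complex (DARS, EPRS, IARS, KARS, LARS, MARS, QARS and RARS) the mean difference from NC had a median of -0.05. EPRS, MARS and QARS were below NC in all 6 libraries and RARS above (13.0% and 18.0% of all genes tested). After length correction the median of the 8 was -0.34, with 6 below 0, against 0.0026 for all genes. The scaffold AIMP1 was at 0.34 ± 0.16 (adjusted p = 0.234, limma), AIMP2 at -0.62 ± 0.21 (0.162) and EEF1E1 at -0.03 ± 0.22 (0.947). PET112, GATC and QRSL1, the subunits that convert mischarged glutamate to glutamine on mitochondrial tRNA, were at -0.26 ± 0.16 (0.332), 0.08 ± 0.18 (0.789) and 0.65 ± 0.15 (0.104). Class I synthetases (18 genes) had a median of -0.07 and class II (17 genes) one of -0.12, the classes being the 2 structural families of catalytic domains. With length correction these medians were -0.28 and -0.08. Of 9 mitochondrial translation factors, 1 was below NC in all 6 libraries and 3 above (13.0% and 18.0% of all genes tested). After length correction 2 of these 9 and 1 of the 3 scaffolds had a mean difference below 0, where the median of all genes was 0.0026. Of 9 other aminoacylation factors, among them PET112, GATC and QRSL1, 8 did so, with a median of -0.29. XPOT, the tRNA exporter, named after its values were seen, was at -0.46 ± 0.22 (0.246) as deposited and fell by 0.96 ± 0.12 (0.0174) after length correction.

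Taken 1 at a time against NC, none of the 3 siRNAs gave a call among the members, where limma called 0.00% of genes lower and 0.00700% higher under RPL9 siRNA, 0.00% and 0.0140% under RPL17 siRNA and 0.00% and 0.00% under RPL27 siRNA. At an unadjusted p under 0.05, 8 cytosolic genes were below NC under RPL9 siRNA, 9 under RPL17 siRNA and 9 under RPL27 siRNA, of 2913, 2247 and 2390 genes in both directions. Under RPL9 siRNA the lowest cytosolic genes were GARS (-1.26 ± 0.16, adjusted p = 0.0986), CARS (-0.97) and AARS (-0.71), and the highest KARS (0.37), FARSB (0.36) and RARS (0.27). The lowest mitochondrial genes were FARS2 (-0.61), TARS2 (-0.36) and IARS2 (-0.19), and the highest MARS2 and PARS2 (both 0.53) and WARS2 (0.48). Under RPL17 siRNA the lowest cytosolic genes were CARS (-1.27 ± 0.19, adjusted p = 0.192), GARS (-1.04) and YARS (-0.93), and the highest FARSB (0.44), RARS and FARSA (both 0.28). FARS2 (-0.82), VARS2 (-0.31) and TARS2 (-0.29) were the lowest mitochondrial genes there, and PARS2 (0.78), LARS2 (0.68) and WARS2 (0.63) the highest. Under RPL27 siRNA the lowest cytosolic genes were QARS (-1.48 ± 0.18, adjusted p = 0.09995), GARS (-1.09) and CARS (-1.06), and the highest FARSB (0.34), FARSA (0.23) and HARS (0.20). The mitochondrial genes ran from FARS2 (-0.94), RARS2 (-0.44) and AARS2 (-0.32) up to PARS2 (0.47), WARS2 (0.55) and LARS2 (0.62). FARS2 was thus the lowest mitochondrial gene and FARSB among the 3 highest cytosolic genes under each siRNA. With length correction AARS, CARS and GARS fell under RPL9 siRNA (1.73% of genes lower) and AARS, CARS, GARS, QARS, WARS and YARS fell under RPL27 siRNA (1.18% lower), while no member was called under RPL17 siRNA (0.0846% lower, 0.261% higher). These 3 comparisons share the NC libraries.

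The 3 RPL siRNAs were also compared among themselves, each against the average of its 2 companions, which leaves the NC libraries out. Under RPL27 siRNA QARS fell by 1.01 ± 0.07 on the log2 scale (adjusted p = 0.00767, limma on the 6 RPL siRNA libraries). The differences were -0.92 in HCT116 and -1.10 in HT29. It was the 1 member called of 36, against 0.851% of the 14217 genes called lower, and no member was called higher (0.542% of genes). In RPKM the RPL27 siRNA libraries were at 1326 and 1107, and the other 4 between 2286 and 2617, with no overlap. QARS remained called after length correction (-1.02 ± 0.07, adjusted p = 0.00528, with 1.02% of genes called lower). Leaving out either RPL27 siRNA library ended the call, with adjusted p of 0.0676 without HCT116 RPL27 and 0.0565 without HT29 RPL27, and the fit on all 8 libraries gave 0.793. AARSD1, a gene for an alanyl-tRNA editing protein named after its values were seen, also fell under RPL27 siRNA (-0.85 ± 0.07, adjusted p = 0.0122).

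RPL9 siRNA gave 1 call: SARS was higher than under the other two siRNAs by 0.37 ± 0.05 (adjusted p = 0.0484), where 0.380% of genes were called higher and 0.436% lower. SARS was at 2040.0 RPKM under RPL9 siRNA against 1465 and 1723 in HCT116, and at 1637 against 1149 and 1365 in HT29, so RPL9 siRNA was highest in each line. Leaving out any 1 of the 6 libraries ended this call, as did the length correction (adjusted p = 0.0530), after which QARS was the 1 member called in place of SARS. QARS (0.51 ± 0.07, adjusted p = 0.0508) and DARS (-0.39 ± 0.06, adjusted p = 0.0596) were just outside the threshold. For QARS the low RPL27 siRNA libraries (1326 and 1107 RPKM) form part of the comparator for both RPL9 and RPL17 siRNA. Between RPL9 and RPL17 siRNA its order differed by line, at 2617 against 2390.1 RPKM in HCT116 and 2286 against 2455 in HT29. RPL17 siRNA gave no member call (0.324% of genes lower, 0.141% higher). At an unadjusted p under 0.05 (limma), RPL17 siRNA had 3 cytosolic genes below and 4 above, among 2585 of the 14217 genes in both directions. Its outermost cytosolic members were QARS (0.49 ± 0.07, adjusted p = 0.0579), DARS (0.28) and GARS (0.13) above, and SARS (-0.37 ± 0.05, adjusted p = 0.0542), CARS (-0.25) and YARS (-0.24) below. No mitochondrial gene passed the test in these 3 contrasts (limma), and the outermost were AARS2 (0.35 ± 0.14, adjusted p = 0.218) and LARS2 (-0.20 ± 0.09, adjusted p = 0.267) for RPL9 siRNA, PARS2 (0.28 ± 0.32, adjusted p = 0.709) and YARS2 (-0.10 ± 0.12, adjusted p = 0.727) for RPL17 siRNA, and EARS2 (0.12 ± 0.12, adjusted p = 0.674) and AARS2 (-0.30 ± 0.14, adjusted p = 0.301) for RPL27 siRNA.

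**Figure D4:**
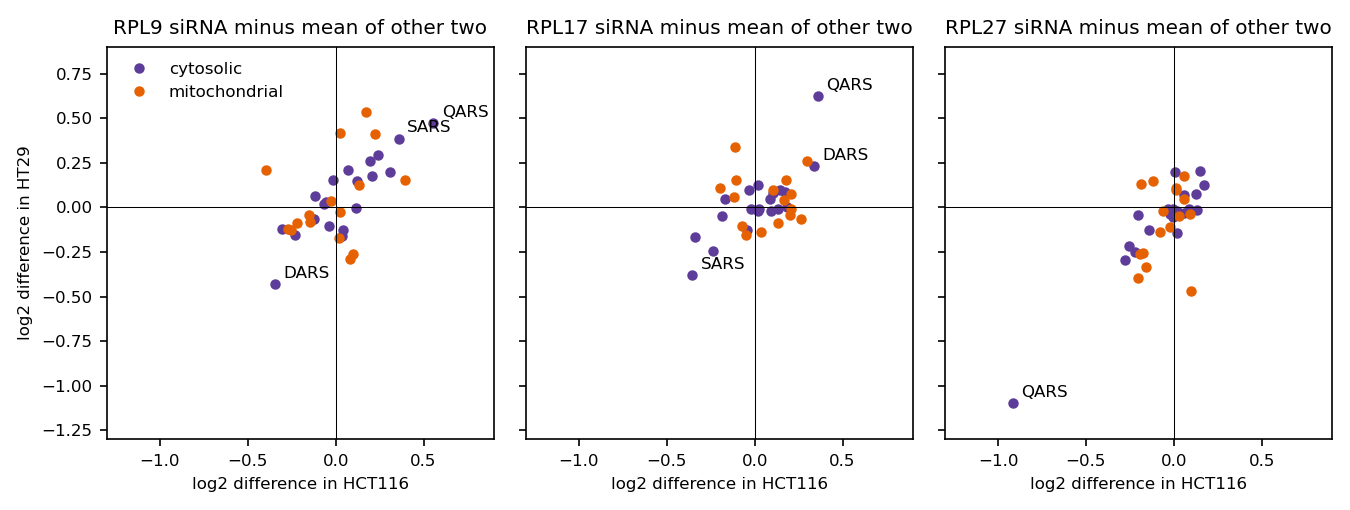
Difference in log2(RPKM + 1) between 1 RPL siRNA and the mean of the other two in HCT116 (horizontal axes) and HT29 (vertical axes), with 1 point per synthetase gene (purple, cytosolic; orange, mitochondrial). QARS stands alone at -0.92 and -1.10 for RPL27 siRNA; the sets otherwise lie within about 0.6 of 0.

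Under the RPL siRNAs, 11 of the 20 cytosolic synthetases were higher in HCT116 than in HT29. In the limma fit on the 6 RPL siRNA libraries, these 11 (DARS, EPRS, FARSA, FARSB, HARS, IARS, LARS, MARS, RARS, SARS and VARS) and 2 mitochondrial genes (IARS2 and LARS2) were higher in HCT116, and none was lower. Over all genes 11.4% were called higher and 11.8% lower. VARS, the valine enzyme, had the largest difference: it was at 3123, 2812 and 3289 RPKM in HCT116 and 1962, 2068 and 2325 in HT29 under RPL9, RPL17 and RPL27 siRNA, without overlap (0.54 ± 0.06, adjusted p = 0.00262). FARSA (0.35 ± 0.06, adjusted p = 0.00909), FARSB (0.35 ± 0.06, adjusted p = 0.0102) and SARS (0.33 ± 0.05, adjusted p = 0.00707) followed. With NC siRNA, 1 library per line, VARS was also higher in HCT116, at 3125 RPKM against 2217 in HT29. DARS, EPRS, FARSB, IARS, LARS, IARS2 and LARS2 were likewise higher in HCT116 under NC, while FARSA, HARS, MARS, RARS and SARS were lower. Under the RPL siRNAs the median differences between the lines were 0.20 for cytosolic, 0.02 for mitochondrial and 0.04 for all genes. HCT116 was the higher line under each of the 3 siRNAs for 17 of 20 cytosolic and 6 of 16 mitochondrial genes, against 31.2% of all genes. TARS was the 1 cytosolic gene lower in HCT116 under each siRNA (-0.09 ± 0.04, adjusted p = 0.175), where 26.3% of all genes met that rule. The calls depended on the libraries: leaving out each of the 6 in turn gave 2 to 11 members called higher, and the fit on all 8 libraries gave 0.

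**Figure D5:**
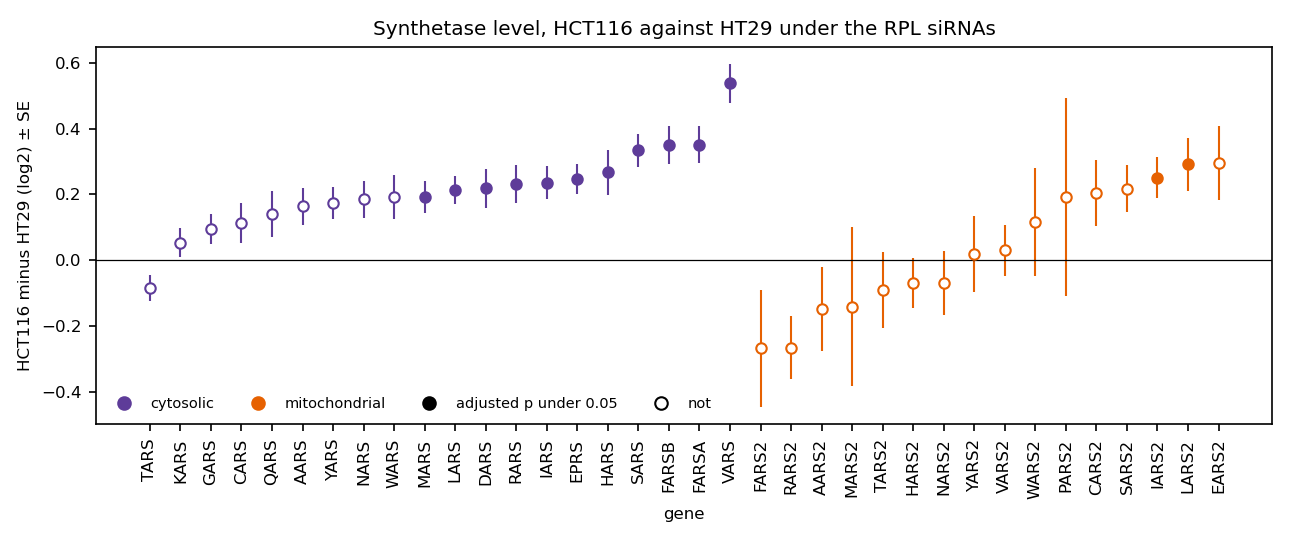
Difference in log2(RPKM + 1) between HCT116 and HT29 under the RPL siRNAs (vertical axis, estimate ± SE from the fit on 6 libraries) for each synthetase gene (horizontal axis; purple, cytosolic; orange, mitochondrial). Filled circles passed the adjusted threshold of 0.05: 11 cytosolic genes, up to 0.54 for VARS, and the mitochondrial genes IARS2 and LARS2, at 0.25 and 0.29.

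HARS and CARS2 passed the threshold in the interaction fit, which compares the difference from NC between the lines. In that fit the 3 RPL siRNA libraries of each line stand in for replicates, and the variation between NC libraries is not measured. HARS was at 901 RPKM under NC and 1239, 1127 and 1290.3 under the RPL siRNAs in HCT116, and at 1139 under NC and 954, 1034 and 1046 in HT29. CARS2, the mitochondrial cysteine enzyme, was at 245 under NC and 372, 449 and 376 in HCT116, and at 392 under NC and 332, 335 and 369 in HT29. Both genes were thus above NC in every HCT116 library and below it in every HT29 library, although the HT29 values lay on both sides of NC after length correction (-0.06 to 0.04 for HARS, -0.12 to 0.03 for CARS2). The difference of the effects (HCT116 minus HT29) was 0.61 ± 0.18 for HARS (adjusted p = 0.0453) and 0.88 ± 0.24 for CARS2 (adjusted p = 0.0321), where 6.11% of genes were called higher and 16.8% lower and the median over all genes was -0.19. After length correction neither was called (adjusted p = 0.1695 and 0.102, where 3.03% of genes were called higher and 4.51% lower), and EPRS was the 1 member called, at 0.73 ± 0.14 (adjusted p = 0.0248). Leaving out any RPL siRNA library other than HCT116 RPL17 ended the HARS call (adjusted p = 0.0672 to 0.0832), and leaving out HT29 RPL9 or HT29 RPL17 ended that of CARS2 (adjusted p = 0.0530 and 0.0670). The comparison rests on the single NC library of each line, and HT29 NC is the library that stood apart.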

How the data were processed

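Each library was deposited as a table of RPKM for 19124 gene symbols, calculated by the authors, per the file headers. CASAVA 1.8.2, TopHat2 2.0.9 and hg19 are named in the submitters' processing notes, which do not state the counting rule. Values were taken as log2(RPKM + 1), so changes of low genes are understated. Genes averaging 1 RPKM or more entered the test (14281 over 8 libraries, 14217 over 6) with limma 3.58.1 (trend) in R 4.3.3, two-sided, with Benjamini-Hochberg adjustment over all genes tested and a threshold of 0.05. Contrasts with NC used 8 libraries with terms for line and siRNA (3 residual degrees of freedom). Contrasts among RPL siRNAs and between lines used the 6 RPL siRNA libraries (2 degrees), and the interaction fit had 4. The length correction removed a spline (5 degrees of freedom) of each library's deviations on transcript length, from GENCODE transcripts matched by accession or symbol. Values are on hg19 annotation, whereas promoters and lengths are on GRCh38, and no coordinates were converted. The files give no read counts, so counting error is not given. The fit was run on simulated data with independent noise, smaller than the residual spread of these libraries, and no length trend. That setting cannot show how the fit performs on these libraries. Members and gene lists were chosen with earlier results of these data known. All 36 members are accounted for; the naming rule was members past the threshold in a contrast, or else the 3 highest and lowest of each set; for the contrasts among RPL siRNAs the mitochondrial set is given by its outermost gene at each end. Alternatives covered the pseudocount, filter, normalization, limma options, corrections for length and GC content, and leaving out each library.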

Additional observations from a re-analysis of the deposited data

Results flagged for a closer look

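An interaction term in limma placed 2 synthetase genes past the threshold for a difference between the lines, in a fit that called 6.11% of all genes higher and 16.8% lower and that rests on 1 NC library per line, so that variation between NC libraries is not measured. HARS had a difference of effects (HCT116 minus HT29) of 0.61, from 0.43 ± 0.10 in HCT116 and -0.17 ± 0.07 in HT29 (SD over 3 siRNAs against 1 NC library). CARS2 had a difference of 0.88, from 0.70 ± 0.15 in HCT116 and -0.18 ± 0.09 in HT29. HARS shares 9.50% of its exonic bases with HARS2 when strand is ignored. The part of the HT29 NC library in these differences was not tested beyond the length correction, under which neither passed the threshold.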

How the results depend on the processing

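The labels carry no replicate numbers, so libraries were paired by line only. The line term of the fits sets each siRNA against the NC library of its line. Without that term 0 members were called against NC, as with it. Counts of synthetases called lower for the 3 RPL siRNAs together against NC (0 as reported) became 2 under quantile normalization, 8 under the length correction, 8 under length and GC correction, 6 with any RPL siRNA as 1 group, and 8 lower and 1 higher in the HT29 libraries alone. The counts over all genes moved too, from 9 lower and 15 higher to 1611 and 3390 in HT29 alone, 281 and 412 with 1 group, 469 and 394 under length correction and 47 and 36 under quantile normalization. Leaving out each library gave 0 to 11 lower and 0 to 6 higher, and both NC libraries moved these counts. For RPL9 siRNA against NC the lower count was 3 under length and 5 under length and GC correction, and 0 to 11 lower and 0 to 4 higher when leaving out a library. For RPL17 siRNA it was 2 under length and GC correction, and 0 to 11 lower and 0 to 5 higher. For RPL27 siRNA it was 6 and 7 under the 2 corrections, and 0 to 13 lower and 0 to 4 higher. For RPL9 siRNA against the other RPL siRNAs, the higher count (1) became 0 with a pseudocount of 0.1, without a filter, without trend, with all 8 libraries and without any 1 library, and 2 with a pseudocount of 5, a filter at 5 RPKM, quantile normalization or length and GC correction; the lower count (0) became 1 under the last 3. For RPL17 siRNA the lower count (0) became 1 with a pseudocount of 5, the filter at 5 RPKM or quantile normalization, and the higher count 1 under the filter, quantile normalization or length and GC correction. For RPL27 siRNA the lower count (1, QARS) became 0 without a filter, without trend or with all 8 libraries, and was 0 to 1 when leaving out a library. Between the lines, the higher count (13) became 1 without a filter and 0 without trend. It was 20 under length and 22 under length and GC correction, 0 with all 8 libraries and 2 to 11 without 1 library. Quantile normalization gave 1 lower. All genes called higher went from 1624 to 280 without a filter, 2436 under length and 2612 under length and GC correction. Without 1 library they numbered 497 to 1101. For the difference between lines, the higher count (2) became 10 under median-centring (all genes called higher went from 873 to 2135, and their median from -0.19 to 0.25), 0 without trend, 1 under length correction and 0 to 2 without 1 library; quantile normalization gave 1 lower. The gap between cytosolic and mitochondrial medians in HT29 (-0.20) was 0.0216 under quantile normalization, -0.59 under length correction and -0.15 for members averaging at least 5 RPKM, while in HCT116 it stayed between -0.31 and -0.29. Of 287 alternatives for the 17 member results past the threshold, 165 kept the call, 122 did not and none reversed. The cause of these moves was not tested. PARS2 had the widest error of the members against NC.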
